A study of Homo sapiens with 4 samples.

Results

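The nuclear genome encodes most subunits of the 5 complexes of oxidative phosphorylation, and their transcripts were followed here in HaCaT, a keratinocyte line that grows without limit in culture. Members were taken by gene name (NDUFA, NDUFB, NDUFC, NDUFS and NDUFV with a digit, COX4 to COX8, UQCR, ATP5, and SDHA to SDHD), without names of pseudogenes and without genes whose mean was under 1 FPKM in both groups. FPKM is the number of fragments scaled to transcript length and to the library's mapped fragments. Levels of different genes are set side by side here, although how transcripts were combined into a gene value is not given. Of 58825 genes in the deposited values, 241 carried such a name, 149 of them were pseudogenes, and 12 of the other 92 lay below the limit, which left 80 members among 12411 tested genes. They comprised 36 genes of complex I, 4 of complex II, 9 of complex III, 12 of complex IV, 18 of complex V and the read-through gene NDUFC2-KCTD14.

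The cells were grown in MEPICF500 medium with 1.2 mM calcium, and all were treated with a lentivirus. The control group received the negative control hairpin shNC and the knockdown group a hairpin, shlnc-DC, against the long noncoding RNA lnc-DC, with 2 libraries per group. The study asked how silencing lnc-DC changes gene expression in HaCaT cells that had been induced to differentiate. The labels call the libraries biological replicates but name no separate infections, so a p-value here reflects only how far these libraries spread, which may be technical. The 12 genes under the limit were 8 isoforms or relatives described with complexes IV and V, the read-through ATP5MF-PTCD1, and the noncoding NDUFA6-DT, NDUFB2-AS1 and NDUFV2-AS1. NDUFC2-KCTD14 lay just inside it through the knockdown mean alone (means of 0.665 FPKM with shNC and 1.14 FPKM with shlnc-DC), and NDUFV2-AS1 was the nearest below, at 0.330 and 0.225 FPKM. The rule also leaves out NDUFAB1 and CYC1, subunits with other names, which are counted with the lists of partner genes.

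Complex I oxidises NADH, complex II oxidises succinate as part of the citric acid cycle, and both pass electrons through ubiquinone to complex III, then by cytochrome c to complex IV, which reduces oxygen. Complexes I, III and IV pump protons, and complex V, the ATP synthase, uses the gradient to make ATP. All but complex II also hold subunits encoded by mitochondrial DNA, so each is assembled from products of both genomes, and keratinocytes are known to rely on glycolysis as well as respiration. NRF1, the ETS factor GABP and YY1 are known regulators of many of the nuclear genes.

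The target was low in both knockdown libraries, whereas some defining keratinocyte markers were near 0 throughout. WFDC21P, which is transcribed into lnc-DC, was at 2.15 and 2.76 FPKM in control and at 0.09 and 0.29 FPKM in knockdown cells (limma adjusted p = 0.0715). Of 12 keratinocyte and epithelial markers 8 passed the limit of 1 FPKM, and KRT1 was listed at 0. KRT14, a keratin of basal keratinocytes, and KRT16 did not exceed 0.35 FPKM in any library, and KRT17 did not exceed 0.85 FPKM. How multi-mapping reads were treated is not given in the sources used here. The summed level of the 12 was 473 to 523 FPKM in control and 304 to 353 FPKM in knockdown cells, mostly from KRT5 and EPCAM, and the part of this difference in the results was not tested. None of 6 fibroblast and 4 melanocyte markers passed it (COL1A2 and TYR at 0), with summed levels of at most 0.68 FPKM. Of 5 immune markers CD68 and CD14 passed, with a sum of 13.3 to 13.9 FPKM over the list and PTPRC at 0. Transcripts of mitochondrial DNA held 41.2% and 41.9% of all FPKM in control and 28.1% and 26.8% in knockdown cells. FPKM is relative to a library's total, and values with the nuclear genes rescaled to their own total are given with the alternatives.

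Most promoters of the members hold recurring motifs, and 4 promoters are shown because their genes lie on both sides of 0 in the comparison below. Each is the RefSeq promoter (GRCh38.p14), 250 bases before to 50 after the gene's start, 5′ to 3′ on the gene's strand. Capitals mark matches to GCGC, any base, then TGCGC (NRF1), CCGGAAG (ETS) or ATGGCGG (YY1) on either strand. The promoter of ATP5F1E holds no match. SDHD and NDUFA6 had higher means in the knockdown, and UQCRC1 and ATP5F1E lower ones. They lie at chr11:112086623-112086922 on the plus strand (SDHD), and on the minus strand at chr22:42090723-42091022 (NDUFA6), chr3:48609597-48609896 (UQCRC1) and chr20:59032286-59032585 (ATP5F1E).
SDHD: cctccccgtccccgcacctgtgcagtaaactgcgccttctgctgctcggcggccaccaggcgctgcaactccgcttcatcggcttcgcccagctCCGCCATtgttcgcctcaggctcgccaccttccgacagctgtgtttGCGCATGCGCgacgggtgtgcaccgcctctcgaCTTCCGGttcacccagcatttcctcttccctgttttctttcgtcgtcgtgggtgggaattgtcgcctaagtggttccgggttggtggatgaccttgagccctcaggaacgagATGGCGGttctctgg
NDUFA6: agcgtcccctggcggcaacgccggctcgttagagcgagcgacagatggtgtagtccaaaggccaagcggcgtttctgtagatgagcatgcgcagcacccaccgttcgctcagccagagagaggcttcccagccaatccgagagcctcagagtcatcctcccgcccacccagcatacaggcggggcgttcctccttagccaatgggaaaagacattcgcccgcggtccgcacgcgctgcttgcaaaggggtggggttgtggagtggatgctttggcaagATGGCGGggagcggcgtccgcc
UQCRC1: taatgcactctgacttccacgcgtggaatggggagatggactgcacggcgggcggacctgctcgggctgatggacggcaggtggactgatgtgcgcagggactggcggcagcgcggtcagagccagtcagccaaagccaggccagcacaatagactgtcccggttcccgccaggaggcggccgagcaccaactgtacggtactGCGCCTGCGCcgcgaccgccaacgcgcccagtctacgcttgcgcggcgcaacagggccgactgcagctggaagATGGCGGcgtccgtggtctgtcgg
ATP5F1E: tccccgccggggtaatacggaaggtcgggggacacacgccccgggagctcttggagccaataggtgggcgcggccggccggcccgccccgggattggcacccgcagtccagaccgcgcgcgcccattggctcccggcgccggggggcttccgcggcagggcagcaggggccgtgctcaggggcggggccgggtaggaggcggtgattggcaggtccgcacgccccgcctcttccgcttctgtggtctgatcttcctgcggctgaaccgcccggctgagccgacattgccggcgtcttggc

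A promoter was found for 65 of 79 subunit genes. The NRF1 letters stood in 16 of 65 promoters (24.6%, against 6.28% of all 27305 promoters and 12.7% of the 8834 promoters of tested genes). The ETS letters stood in 20 (30.8%, against 10.7% and 21.2%) and the YY1 letters in 19 (29.2%, against 5.72% and 11.4%). At least 1 of the 3 stood in 42 promoters and none in 23, ATP5F1E among them, and SDHD alone held all 3. The NRF1 letters in the SDHD promoter read the same way on both strands and are 1 site in these counts, and matches of different motifs do not overlap in the 4 promoters shown. Members with the NRF1 letters had a median log2 fold change of -0.015, and the 49 without them 0.038. For the ETS letters these medians were 0.027 and 0.026, and for the YY1 letters -0.035 and 0.052. A match is a description of the sequence, not evidence that a factor was bound.

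Transcript levels of the members were mostly above those of other genes and differed widely between subunits of 1 complex. The mean over all 4 libraries had a median of 26.1 FPKM over the members, against 5.43 FPKM over all tested genes. In complex I it ran from 3.12 FPKM for NDUFS7, an iron-sulphur core subunit of the quinone module, to 188 FPKM for NDUFA1, a small membrane subunit, a 60.2-fold range. It ran from 7.20 FPKM (SDHC) to 43.2 FPKM (SDHD) in complex II, from 3.87 FPKM (UQCRHL) to 143 FPKM (UQCRH) in complex III, and from 9.35 FPKM (COX7A2L) to 166 FPKM (COX8A) in complex IV. In complex V the highest was ATP5F1B, the catalytic beta subunit, at 376 FPKM, and the lowest ATP5F1D, the delta subunit of the central stalk, at 7.41 FPKM. SDHA to SDHD, which sit in complex II in equal numbers, were therefore listed at unequal levels. The lowest member of complex III is a retrocopy (UQCRHL) and that of complex IV a supercomplex factor (COX7A2L). The next lowest there were UQCRB (17.9 FPKM) and COX7A2 (18.5 FPKM).

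The level per gene also went with how many transcripts the table assigns to it. The 5 members with 1 listed transcript (NDUFA1, COX8A, NDUFA8, UQCRFS1 and UQCRHL) had a median of 100 FPKM and the 75 with several a median of 25.5 FPKM, while over all tested coding genes these medians were 6.22 and 6.25 FPKM. Across the members the Spearman correlation of level with the number of listed transcripts was -0.33, against -0.04 over the 10414 tested genes with a coding transcript, and with transcript length it was -0.08. Genes are not independent replicates, and how the authors combined transcripts into a gene value is not given in the sources used here. Members are short: their median coding transcript length in GENCODE 29 was 702.5 bases, against 1771 bases over tested genes, and 48.8% lay under 700 bases, against 9.66%.

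None of the 80 members passed the test between knockdown and control. Limma called 0 members higher and 0 lower at an adjusted p under 0.05, where 0.25% of all tested genes were called, and the smallest adjusted p among the members was 0.111. The unadjusted p was under 0.05 for 3 members (3.75%), all higher in the knockdown and all supernumerary subunits of complex I, against 22.8% of all tested genes, or 14.8% on the higher side. The 2 libraries of each group did not overlap for 27 members (33.8%), 19 higher and 8 lower, against 54.8% of tested genes, 35.6% higher and 19.2% lower. The median log2 fold change was 0.08 over the members and 0.09 over all tested genes, with 46 members above 0 and 34 below. These directions rest on the scaling and on single libraries: after quantile normalization 8 members did not overlap on the higher side and 23 on the lower, and the median was -0.023, where over all tested genes 54.8% did not overlap and the median was 0.022. Without control replicate 1 the median was -0.040, and without knockdown replicate 2 it was -0.038.

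The differences were small and their intervals bound them. NDUFA13, a subunit also known as GRIM-19, was at 29.45 and 23.75 FPKM in control and at 15.48 and 27.04 FPKM in knockdown cells, so its lower mean came from knockdown replicate 1. The log2 fold change, here and below on the log2(FPKM + 1) scale, ran from -0.35 (NDUFA13) to 0.70 (NDUFB9), and 78 members (97.5%) lay within 0.5 of 0, against 84.2% of tested genes. The median size of the difference was 0.14 for the members and 0.23 for all tested genes, while the median SE was 0.148 and 0.150. The 95% limma interval lay between -1 and 1, a 2-fold change either way on this scale, for 76 members (95.0%), against 82.4% of tested genes. The 4 exceptions were NDUFB9, NDUFA13, COX7A2L and NDUFC2-KCTD14. Among the 7347 tested genes at levels like the members' (from the 5th to the 95th percentile of their means, 3.86 to 144 FPKM), 26.3% had an unadjusted p under 0.05, 58.6% did not overlap and 84.7% lay within 0.5 of 0.

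**Figure D1:**
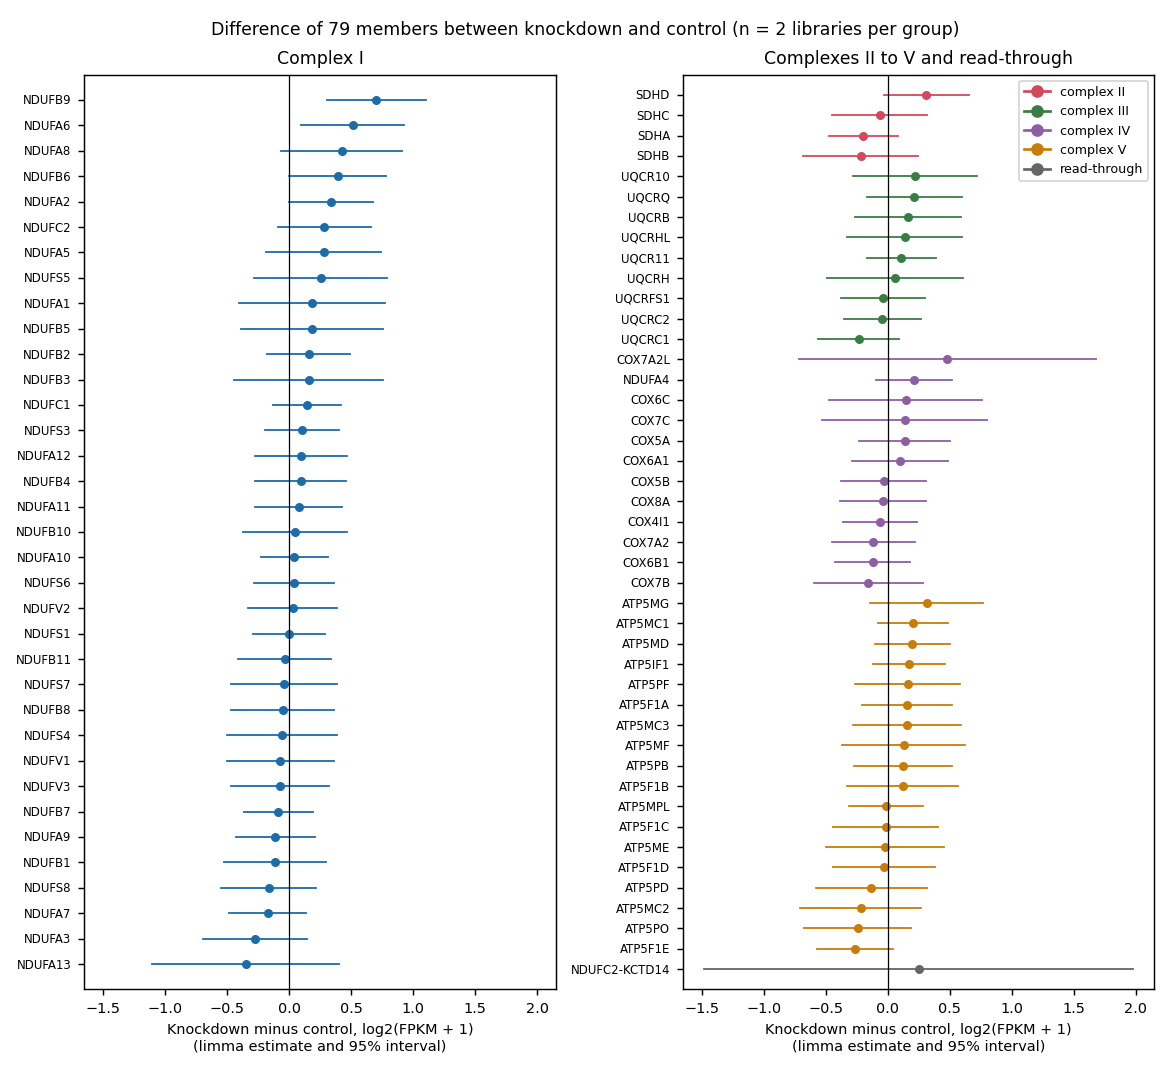
Difference of 79 members between knockdown and control on the log2(FPKM + 1) scale (x axis), as the limma estimate (point) and its 95% interval (line), with n = 2 libraries per group, complex I on the left and the other complexes and the read-through gene on the right. Most points lie within 0.5 of 0, NDUFB9 at 0.70 is the highest, and NDUFC2-KCTD14 and COX7A2L have the widest intervals.

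In complex I the highest estimates belonged to supernumerary subunits, the proteins added around the conserved core. NDUFB9, a subunit of the membrane arm, was at 16.59 and 13.58 FPKM in control and at 27.21 and 23.02 FPKM in knockdown cells. The groups did not overlap, the ratio of means was 1.66, and the log2 fold change was 0.70 (SE 0.152, interval 0.30 to 1.10, limma adjusted p = 0.111). NDUFA6, a subunit at the joint of the matrix arm (chromosome 22, 42085525 to 42090955, minus strand, GENCODE 29 on GRCh38), was at 20.64 and 15.64 FPKM and at 25.59 and 26.50 FPKM. Its control libraries differed from each other by about as much as the higher of them did from the knockdown libraries, and the log2 fold change of 0.51 (SE 0.159) had an adjusted p of 0.166.

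NDUFB6, another membrane arm subunit (chromosome 9, 32552999 to 32573184, minus strand), was at 8.65 and 11.16 FPKM in control and at 13.08 and 13.33 FPKM in knockdown cells (log2 fold change 0.39, adjusted p = 0.218). NDUFA2 (chromosome 5, 140638740 to 140647785, minus strand) was at 16.48 and 16.32 FPKM in control and at 19.14 and 23.03 FPKM in knockdown cells (0.34, adjusted p = 0.220). NDUFA8 was at 75.44 and 96.05 FPKM and at 102.15 and 128.09 FPKM (0.42, adjusted p = 0.264). In these 3 genes both knockdown libraries lay above both control libraries, with the narrowest gap relative to its level for NDUFA8. NDUFA3 leaned the other way, at 6.49 and 8.70 FPKM in control and 6.02 and 6.05 FPKM in knockdown cells (-0.28, adjusted p = 0.369). NDUFA1, the most abundant complex I transcript, was at 150.43 and 201.45 FPKM in control and 170.27 and 230.31 FPKM in knockdown cells, so its groups overlapped.

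The core of complex I, the subunits that carry the flavin and the iron-sulphur clusters, had a median nearer 0 on the deposited scale. The 7 nuclear core members had a median of -0.001, with 3 above 0 and 4 below, and 5 of them overlapped between groups. The 29 supernumerary members had a median of 0.09 and a range of -0.35 to 0.70, beside a median of 0.09 over all tested genes. Of these members 9 did not overlap on the higher side and 3 on the lower, against 35.6% and 19.2% of all tested genes, and 41.4% did not overlap in either direction, against 54.8%. After median centring the core median was -0.081, where over all tested genes it was 0.011. After quantile normalization these medians were -0.095 and 0.022, so the nearness of the core to 0 rests on the scaling. The difference between core and supernumerary members was not tested.

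The 4 subunits of complex II did not lean the same way. SDHA, the flavoprotein that oxidises succinate, was at 27.56 and 29.28 FPKM in control and at 23.84 and 25.48 FPKM in knockdown cells (log2 fold change -0.20, interval -0.48 to 0.08, adjusted p = 0.340). SDHB, the iron-sulphur subunit, was at 36.80 and 50.11 FPKM and at 35.24 and 38.29 FPKM (-0.22, adjusted p = 0.501). Of the membrane anchors, SDHC was at 8.23 and 6.58 FPKM and at 6.64 and 7.35 FPKM (-0.07, adjusted p = 0.809). SDHD was at 35.70 and 41.39 FPKM and at 45.22 and 50.65 FPKM (0.31, interval -0.03 to 0.65, adjusted p = 0.250). SDHA was lower and SDHD higher in both knockdown libraries, whereas the groups overlapped for SDHB and SDHC, and none of the 4 passed.

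In complex III the 9 members had a median log2 fold change of 0.11, with 6 above 0. UQCRC1, a core protein of the matrix side, was at 37.15 and 43.44 FPKM in control and at 34.85 and 33.12 FPKM in knockdown cells, the only complex III member whose knockdown libraries were both below the control libraries (-0.24, adjusted p = 0.333). UQCRH, the hinge protein that binds cytochrome c1, was the most abundant, at 120.23 and 160.54 FPKM in control and 127.14 and 164.04 FPKM in knockdown cells. The difference between the libraries of a group was larger than the difference between the groups. UQCRHL, a retrocopy of UQCRH with a value of its own in the table, stood at 3.26 and 4.01 FPKM and at 3.49 and 4.73 FPKM, and how reads were split between the 2 is not known.

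Complex IV was represented by the ubiquitous isoforms of its subunits. COX4I1, a regulatory subunit, was at 42.11 and 45.50 FPKM in control and at 39.75 and 44.03 FPKM in knockdown cells, while COX4I2, its lung isoform, was listed at 0 in all 4 libraries. COX6A1 was at 110.02 and 134.68 FPKM and at 124.95 and 136.47 FPKM, and COX6A2, the heart and muscle form, was listed at 0. COX7A2 was at 17.58 and 21.04 FPKM and at 17.72 and 17.61 FPKM, and the heart and muscle form COX7A1 was listed at 0.05 FPKM in knockdown replicate 1 and at 0 elsewhere. The testis forms COX7B2 and COX8C were listed at 0 and COX6B2 did not exceed 0.22 FPKM. The same isoform was thus the measured one in every library of both groups, with adjusted p of 0.767 (COX4I1), 0.710 (COX6A1) and 0.613 (COX7A2).

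NDUFA4, named for complex I but known as a subunit of complex IV, was at 22.77 and 25.87 FPKM in control and at 27.56 and 28.93 FPKM in knockdown cells (log2 fold change 0.21, adjusted p = 0.350). Its hypoxia-induced relative NDUFA4L2 was below the limit, at 0.14 and 0.15 FPKM and at 0.34 and 0.19 FPKM. COX7A2L, which takes part in joining complexes III and IV into supercomplexes, was the least repeatable of the subunits, at 10.85 and 4.67 FPKM in control and 7.53 and 14.33 FPKM in knockdown cells. Its interval of -0.71 to 1.67 does not bound the difference to less than 2-fold, and without control replicate 2 the estimate was -0.05. COX8A, the most abundant, was at 157.83 and 177.38 FPKM and at 154.08 and 172.78 FPKM, with a log2 fold change of -0.04 and an interval of -0.38 to 0.31.

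The ATP synthase members, complex V, had a median log2 fold change of 0.12, with 10 of 18 above 0. ATP5F1B, which carries the catalytic sites, was at 324.50 and 397.77 FPKM in control and at 424.30 and 359.27 FPKM in knockdown cells, the highest level of all members and overlapping between groups (0.12, adjusted p = 0.704). ATP5F1E, the epsilon subunit of the central stalk, had the smallest p among members with a lower mean, at 20.10 and 23.13 FPKM in control and at 17.63 and 17.97 FPKM in knockdown cells (-0.26, interval -0.57 to 0.04, adjusted p = 0.269). ATP5PO, the stalk protein that confers sensitivity to oligomycin, was at 31.53 and 31.56 FPKM in control and at 30.68 and 22.93 FPKM in knockdown cells, so that its lower mean came mainly from knockdown replicate 2 (-0.24, adjusted p = 0.437).

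ATP5MC1, ATP5MC2 and ATP5MC3 encode the same mature protein of the proton-turning c ring, and none dominated, with means over all libraries of 17.1, 21.6 and 15.8 FPKM. ATP5MC1 was at 15.22 and 16.46 FPKM in control and 18.76 and 18.00 FPKM in knockdown cells, and its groups did not overlap (0.20, adjusted p = 0.330). The groups overlapped for ATP5MC2 (-0.22) and ATP5MC3 (0.15). ATP5IF1, the inhibitor that blocks ATP hydrolysis by the enzyme when the gradient fails, was at 23.89 and 24.85 FPKM and at 29.14 and 26.09 FPKM (0.17, adjusted p = 0.417). ATP5MGL, a retrocopy of a membrane subunit, was listed at 0 in all 4 libraries.

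**Figure D2:**
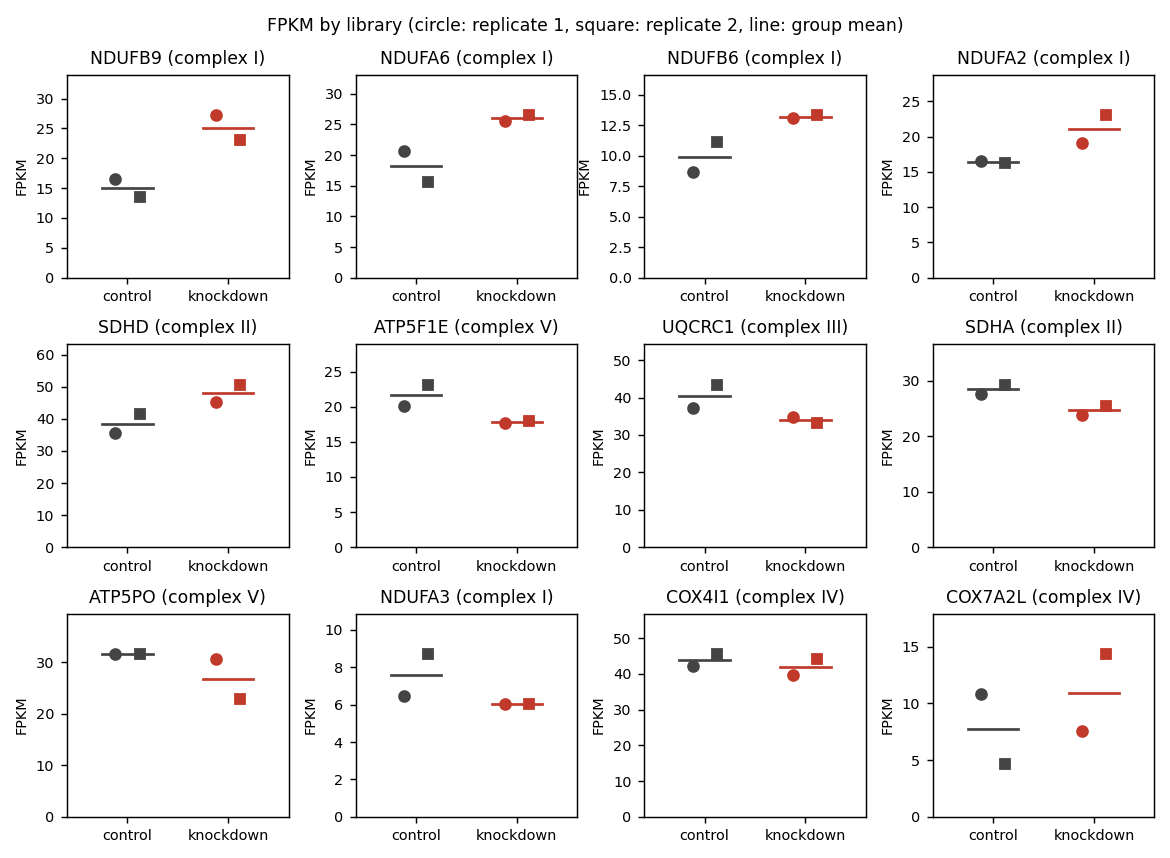
FPKM (y axis, from 0) of 12 members in the 2 control and 2 knockdown libraries, with circles for replicate 1, squares for replicate 2 and lines for group means. NDUFB9, NDUFA6, NDUFB6, NDUFA2 and SDHD lie higher in both knockdown libraries, ATP5F1E, UQCRC1, SDHA, ATP5PO and NDUFA3 lower, and COX4I1 and COX7A2L overlap.

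Several members share sequence with other genes, which leaves their values open to the way shared reads were divided. In GENCODE 29 an exon of 25 members (31.3%, against 17.2% of tested coding genes) overlaps an exon of a neighbour in the same orientation, among them NDUFA13, SDHD and COX8A. NDUFC2-KCTD14, the read-through of NDUFC2 into its neighbour, was at 1.27 and 0.06 FPKM in control and at 0.05 and 2.23 FPKM in knockdown cells, high in 1 library of each group. NDUFC2 itself was at 25.55 and 21.59 FPKM in control and 31.08 and 26.60 FPKM in knockdown cells. Of the 149 pseudogenes left out by name, 104 were listed at 0 in every library and 7 had a mean of at least 1 FPKM in a group. For 3 members, NDUFA5, NDUFV2 and COX7C, the summed pseudogene value was over 10% of the gene's own. COX6A1P2 was the highest pseudogene, at 10.44 and 10.54 FPKM in control and 11.11 and 11.26 FPKM in knockdown cells, beside COX6A1.

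The libraries of a group differed from each other, and in the same direction in both groups for most members. In the control group 66 of 80 members were higher in replicate 2 than in replicate 1, with a median difference of 0.22 on the log2 scale, and in the knockdown group 62 were, with a median of 0.14. Replicate 2 was above replicate 1 in both groups for 52 members (65.0%), against 24.0% of all tested genes, and below it in both for 4 (5.00%), against 41.8%. Over all tested genes the median differences were -0.06 and -0.05. Tested genes with a coding transcript under 700 bases gave -0.01 and 0.00, and members on either side of 700 bases gave 0.28 and 0.21 in control and 0.13 and 0.14 in knockdown cells. What sets the libraries of a group apart was not tested.

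**Figure D3:**
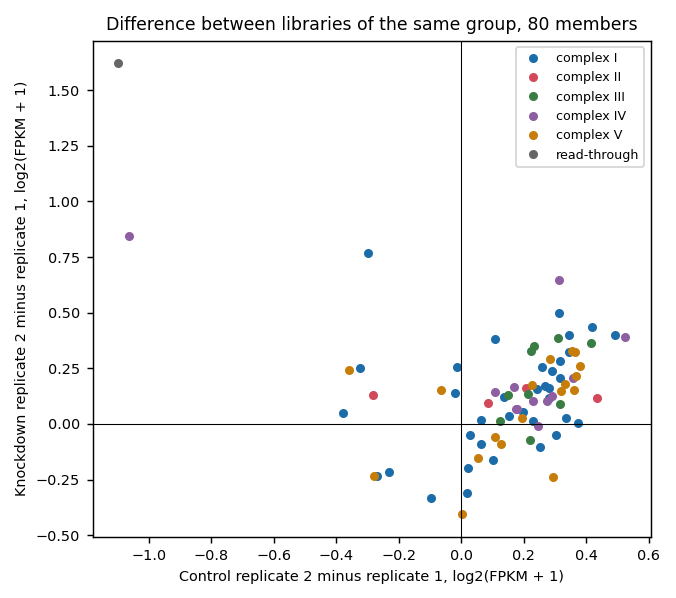
Difference between replicate 2 and replicate 1 on the log2(FPKM + 1) scale in the control group (x axis) and in the knockdown group (y axis), with 1 point per member coloured by complex. Of the 80 points 52 lie in the upper right, above 0 in both groups, and COX7A2L and NDUFC2-KCTD14 lie far to the upper left.

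Summed over each complex the nuclear transcripts overlapped between groups in every complex but the mitochondrially encoded ones did not. The 79 subunit genes summed to 3170 and 3777 FPKM in control and to 3492 and 3879 FPKM in knockdown cells, which was 1.69%, 1.92%, 1.79% and 1.93% of the FPKM not encoded by mitochondrial DNA. The ratio of knockdown to control means of these sums was 1.10 for complex I, 0.988 for complex II, 1.04 for complex III, 1.02 for complex IV and 1.06 for complex V. The mitochondrially encoded subunits of the same complexes summed to 102039 and 109660 FPKM in control and to 58581 and 53878 FPKM in knockdown cells. Their ratios were 0.635 for complex I, 0.508 for complex III, 0.473 for complex IV and 0.439 for complex V. The genes of complex I were unlike each other, from 0.472 for MT-ND4 to 0.880 for MT-ND2, 0.888 for MT-ND3 and 0.906 for MT-ND1. The lowest ratio of all was 0.381, for MT-ATP6.

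The sum of mitochondrially encoded FPKM over nuclear-encoded FPKM was therefore lower in both knockdown libraries for each of these 4 complexes. It was 40.3 and 33.1 in control and 24.4 and 18.0 in knockdown cells for complex I, and 17.1 and 14.1 against 9.03 and 6.32 for complex III. It was 65.9 and 66.3 in control and 32.2 and 29.1 in knockdown cells for complex IV, and 13.1 and 11.8 against 5.66 and 4.62 for complex V. These sums were not tested, since the smallest p of an exact two-sided permutation over 4 libraries is 0.333, and in bulk RNA fewer cells of a kind and less RNA per cell cannot be told apart. None of the 13 mitochondrially encoded subunit genes passed (smallest limma adjusted p = 0.0723, MT-ATP6), where 0.25% of all tested genes were called. The unadjusted p was under 0.05 for 9 of them (69.2%), all lower. Of all tested genes 22.8% had such a p in either direction and 8.0% on the lower side. The median log2 fold change of the 13 genes was -0.98, and it was -1.02 with nuclear genes rescaled to their own total and -1.06 after median centring. Quantile normalization says nothing of it, since these 13 genes are among the highest values of every library and are given like values there by construction.

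**Figure D4:**
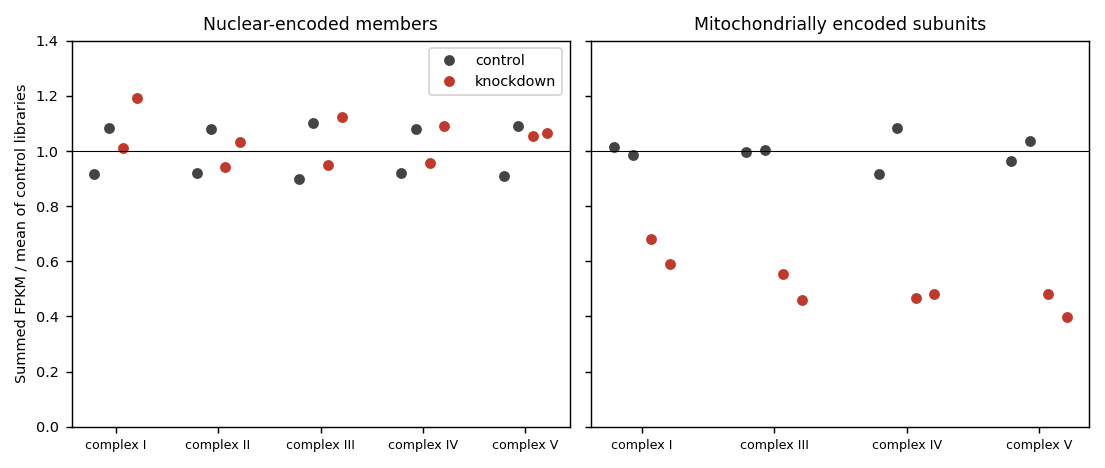
Summed FPKM of the nuclear-encoded members (left) and of the mitochondrially encoded subunits (right) of each complex, divided by the mean of the 2 control libraries (y axis, from 0), with 1 point per library. The nuclear sums of the groups overlap in all 5 complexes, whereas the mitochondrial sums of the knockdown libraries lie below those of the control libraries in the 4 complexes that have such subunits.

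Genes that build and regulate the complexes were read from lists. With 0.25% of all tested genes called, an absence of calls in lists this short says little about them. Of 20 genes of complex I assembly, the acyl carrier NDUFAB1 among them, none passed, while 5 had an unadjusted p under 0.05, all higher, and the median log2 fold change was 0.11. That is 25% of the list, against 14.8% of all tested genes on the higher side and 22.8% in either direction. The difference from these shares was not tested. NDUFAF4, an assembly factor of the matrix arm, was at 3.33 and 4.34 FPKM in control and at 7.29 and 8.51 FPKM in knockdown cells (0.88, adjusted p = 0.0944). NDUFAF5 was at 1.56 and 1.03 FPKM and at 2.48 and 2.67 FPKM (0.65, adjusted p = 0.136). The ratios of means were 2.06 and 1.99, against 1.66 for NDUFB9, the highest among the subunits of the complex.

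None of the 4 complex II assembly factors, the 9 genes of complex III assembly and cytochromes, the 24 measured complex IV assembly factors or the 9 measured genes of ATP synthase assembly and nucleotide carriage passed. Their medians were -0.07, 0.29, 0.14 and 0.11, and 0, 4, 6 and 2 of them had an unadjusted p under 0.05 (0%, 44.4%, 25% and 22.2%, against 22.8% of all tested genes). UQCC2, which promotes cytochrome b synthesis, was at 8.10 and 8.88 FPKM in control and at 12.60 and 12.21 FPKM in knockdown cells (0.50, adjusted p = 0.112). SURF1, needed for an early step of complex IV assembly, was at 13.06 and 12.79 FPKM and at 10.28 and 10.20 FPKM (-0.31, adjusted p = 0.177), opposite in sign to the complex IV factor COA7 (0.49, adjusted p = 0.116). TMEM70, which helps to assemble the c ring, was at 6.64 and 7.48 FPKM and at 10.63 and 10.77 FPKM (0.54, adjusted p = 0.109).

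Of 17 measured regulators none passed, and their median was 0.11. At an unadjusted p under 0.05, 4 were higher and 1 lower (29.4%), against 22.8% of all tested genes, 14.8% higher and 8.0% lower. GABPB1, the partner subunit of the ETS factor GABPA, was at 5.54 and 5.64 FPKM in control and at 11.06 and 11.20 FPKM in knockdown cells (0.88, adjusted p = 0.0661), whereas GABPA overlapped between groups (-0.03). TFAM, which packages mitochondrial DNA and takes part in its transcription, was at 14.92 and 14.57 FPKM in control and at 8.90 and 10.56 FPKM in knockdown cells (-0.56, adjusted p = 0.113). TFB2M, a factor that lets the mitochondrial polymerase start, was at 15.00 and 17.00 FPKM and at 21.98 and 24.94 FPKM (0.52, adjusted p = 0.120). NRF1 was at 3.78 and 3.59 FPKM and at 2.74 and 3.28 FPKM (-0.23, adjusted p = 0.373), and the coactivator PPARGC1A did not exceed 0.10 FPKM.

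Neighbouring mitochondrial pathways held no called gene either, where 0.25% of all tested genes were called. Of 17 citric acid cycle genes none passed and 5 had an unadjusted p under 0.05, all higher, with a median of 0.01. These are 29.4% of the list, against 14.8% of all tested genes on the higher side and 22.8% in either direction. IDH3A, a subunit of the NAD-dependent isocitrate dehydrogenase, was at 10.69 and 10.50 FPKM in control and at 14.57 and 14.75 FPKM in knockdown cells (0.43, adjusted p = 0.116). Of 25 measured genes of protein import and cristae none passed, and the median was 0.21. At an unadjusted p under 0.05, 6 were higher and 1 lower (28.0%). Of all tested genes 22.8% had such a p, 14.8% higher and 8.0% lower. TOMM20, a receptor of the outer membrane, was at 73.09 and 73.18 FPKM and at 102.59 and 101.70 FPKM (0.48, adjusted p = 0.111). Differences between these lists and the subunits were not tested.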

How the data were processed

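Per the labels' protocols, poly(A) RNA from 5 µg of total RNA was made into dUTP-marked libraries and read from both ends over 150 bases. The submitters' processing notes list HISAT2 2.0.4, cutadapt 1.9, edgeR, DESeq2 and StringTie 1.3.4d without saying what each did. Genome build, annotation, strand setting and treatment of multi-mapping reads: not given in the sources used here. The authors deposited FPKM per gene for 4 libraries, and beside them a fold (ratio) per gene with its log2, which no result here uses. No depth can be read from them: at the best depth per library 31.3% to 33.2% of low values lay within 0.1 of a whole read, against a median of 17.4% to 17.8% over depths. Without counts no count test was run. All FPKM columns matched a sample.

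Limma 3.58.1 (R 4.3.3) was fitted to log2(FPKM + 1), computed here from the deposited values, for the 12411 genes that reached a mean of 1 FPKM in either group. The fit used a trended variance and the group alone, was two-sided, and was adjusted by Benjamini-Hochberg over all these genes, with a threshold of 0.05. It was tested on simulated data drawn independently for each gene, and no result here rests on that test. Positions, lengths and exon overlaps came from GENCODE 29, which holds 58552 of the 58825 gene IDs, and promoters from RefSeq.

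The members and the lists were chosen with earlier results of these data known. Values per library were to be given for the 5 members with the smallest p in each direction, the most abundant member of each complex, SDHA to SDHD, tissue isoforms, ATP5IF1 and up to 3 genes per list. NDUFA8, NDUFA13, NDUFC2, NDUFC2-KCTD14, UQCRHL, COX6A1P2, GABPA, NRF1, PPARGC1A and ATP5MC1 to ATP5MC3 were added after their values were seen. Alternatives changed the pseudocount, the filter, the scaling or the variance model, left out each library, or added a replicate term. The values of 1 member are not reported here; it stays in the counts.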

Additional observations from a re-analysis of the deposited data

How the results depend on the processing

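No member passed under any of the 13 alternatives (smallest limma adjusted p 0.0840 to 0.328), and 2 to 9 had an unadjusted p under 0.05, against 3: quantile normalization gave 1 higher and 4 lower, 5 in all, and the replicate block gave 9, all higher. The labels tie the replicate numbers to no shared infection, day or batch. Across genes, the deviations of same-numbered libraries from their group means correlated at 0.124 over all tested genes and -0.249 over the members. A correlation across genes leaves out a shift that the members share. Replicate 2 was above replicate 1 in both groups for 52 members (65.0%, against 24.0% of all tested genes). Whether the numbers pair the libraries is not known. With the block 0 genes passed, with 3791 at an unadjusted p under 0.05 against 2827. Over all genes 31 passed, against 0 without a filter and 0 without any one library, 57 after quantile normalization, 58 under a stricter filter and 17 without the variance trend. Non-overlapping members on the higher side numbered 7 after median centring and 8 after quantile normalization. On the lower side they numbered 14 with nuclear genes rescaled to their own total and 23 after quantile normalization. Of all tested genes 53.3% did not overlap in either direction after median centring, 54.8% after quantile normalization and 51.9% with rescaling. Leaving out 1 library gave 22 to 48 members on the higher side and 11 to 30 on the lower. Groups of 3 libraries overlap less often, and 76.2% to 78.5% of all tested genes did not overlap there. The members' median was -0.023 after quantile normalization and -0.040 to 0.16 without 1 library. Median centring gave 0.034 for complex I assembly, -0.15 for complex II assembly, 0.21 for complex III assembly, 0.060 for complex IV assembly, -1.06 for mitochondrially encoded subunits, -0.067 for the citric acid cycle, 0.13 for import and cristae, -0.081 for the complex I core and -0.024 for UQCRH. Quantile normalization gave 0.025, -0.11 and 0.22 for complex I, II and III assembly, 0 by construction for mitochondrially encoded subunits, -0.075 for the citric acid cycle, 0.090 for import and cristae and -0.095 for the core. The stricter filter gave 0.098, 0.048 and 0.23 for complex II, III and IV assembly, 0.21 for ATP synthase assembly and 0.012 for the core. Rescaling gave -0.095 for complex II assembly and -0.031 for the citric acid cycle, and a pseudocount of 0.1 gave 0.36 for complex III assembly. Without 1 library the medians ran from 0.077 to 0.23 (complex I assembly), 0.25 to 0.37 (complex III assembly), 0.049 to 0.23 (ATP synthase assembly), -0.023 to 0.27 (regulators), -0.98 to -0.85 (mitochondrially encoded), 0.025 to 0.12 (citric acid cycle), 0.13 to 0.26 (import and cristae) and -0.052 to 0.10 (core). Estimates of single members that changed sign ran from -0.027 to 0.27 (ATP5F1B), -0.14 to 0.0083 (COX4I1), -0.044 to 0.25 (COX6A1), -0.24 to 0.0066 (COX7A2), -0.051 to 1.01 (COX7A2L), -0.12 to 0.048 (COX8A), -0.032 to 0.40 (NDUFA1), -0.21 to 0.075 (SDHC) and -0.15 to 0.26 (UQCRH). Apart from the stated constructions the cause was not tested. Depth is unknown, and 2 libraries per group limit what could pass.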
